A study of Mus musculus with 6 samples.

Results

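The genes described are the enzymes other than cytochrome P450 that chemically modify foreign compounds: glutathione transferases, sulfotransferases and other conjugating enzymes, carboxylesterases, epoxide hydrolases, flavin monooxygenases, aldehyde oxidases, and the dehydrogenases and reductases of aldehydes, alcohols and ketones. The list held 48 genes in 9 enzyme classes, and every probe set whose platform annotation names 1 of them and no other gene was taken. This gave 64 probe sets for 43 genes, out of 45037 probe sets for 17097 named genes. Gsta1, Gsta3, Gstz1, Por and Ugt1a1 had no such probe set and were not analysed here. The lungs came from male BALB/c mice aged 10 weeks, 3 in a control group breathing normal air and 3 in a hydrogen group breathing air with 2% molecular hydrogen for 3 weeks. No genetic change or other agent is named for either group. RNA of each whole lung was hybridised to its own array, so each value below is 1 mouse, and the number of arrays limits the precision.

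Xenobiotic enzymes work in sequence. Oxidases, reductases and hydrolases expose or create a reactive group on a compound, and transferases then join glutathione, sulfate, acetyl or methyl groups to it so that it can be excreted. In the lung these enzymes meet inhaled compounds directly, and much of this activity lies in club cells, the secretory cells of the small airways. Several of the same enzymes handle the body's own molecules: aldehyde dehydrogenases make retinoic acid, carboxylesterases split lipid esters, and glutathione transferases clear products of lipid peroxidation.

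All values are log2 values of a probe set, a group of short probes for 1 transcript. Fold changes are the hydrogen mean minus the control mean on that scale. Where a gene has several probe sets, the one with the largest mean of the 6 arrays, called the brightest, stands for it, and "rose" or "fell" means an adjusted p under 0.05 in limma with Benjamini-Hochberg adjustment over all probe sets. With 3 against 3 arrays the smallest two-sided p of an exact permutation test is 0.1. The arrays correlated at r = 0.996 to 0.997 within a group and at 0.980 to 0.988 between groups. Of 85 control probe sets of non-mouse origin, 27 were lower and 15 higher in the hydrogen group (49.4%, limma adjusted p under 0.05). Of the 45037 probe sets tested without the control probe sets, 22.8% were lower and 24.3% higher by the same threshold. The labels give no batch, so a batch and the group cannot be told apart. In whole lung, fewer cells of a type and less RNA per cell cannot be told apart either.

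Most of the enzymes that passed the test were lower in the hydrogen group. Of the 43 measured genes, 23 fell, 1 rose and 19 did not pass, where 25.9% of all genes fell and 25.5% rose. The median log2 fold change was -0.26, against 0.01 for all genes. The list's falls were led by the sulfotransferase genes Sult1d1 (-2.37) and Sult1a1 (-1.12), the aldehyde dehydrogenase gene Aldh3a1 (-1.05) and the flavin monooxygenase gene Fmo2 (-0.97). The thiopurine methyltransferase gene Tpmt (0.57) was the 1 gene that rose. Counted by probe set, 31 of 64 fell and 6 rose, where 22.8% of all probe sets fell and 24.3% rose.

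**Figure D1:**
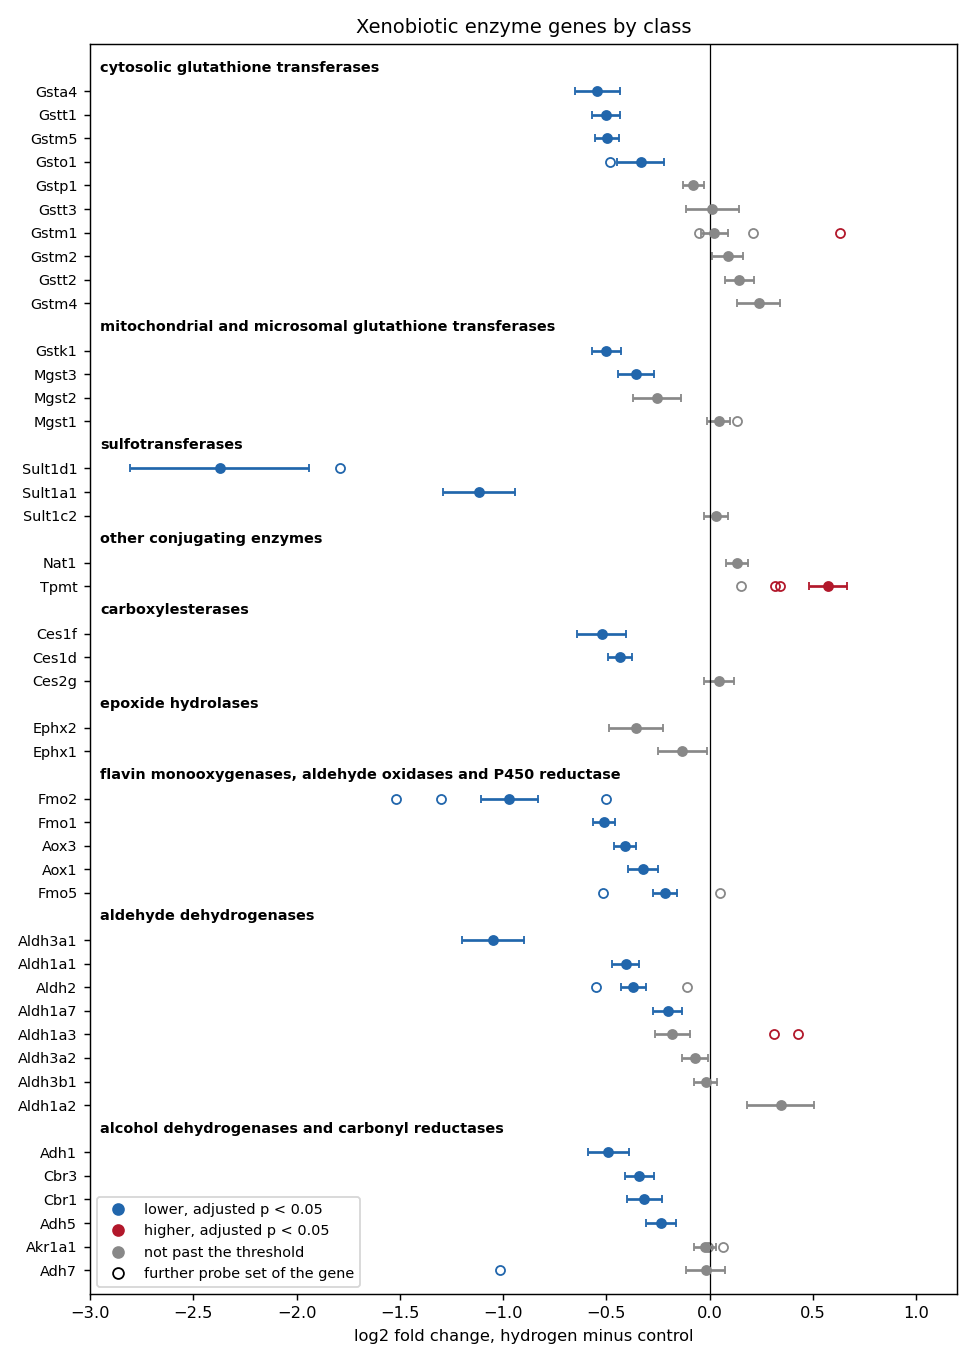
Log2 fold change (hydrogen minus control) of the 43 measured genes, grouped by enzyme class. Filled points are the brightest probe set with its standard error, open points are further probe sets of the same gene, and colour gives the limma call. The sulfotransferases Sult1d1 and Sult1a1 lie farthest to the left, and Tpmt is the 1 brightest probe set called higher.

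Part of the tilt towards falls went with brightness. Bright genes as a whole were lower in the hydrogen group and dim genes higher: among the 10808 genes brighter than the median probe set 37.9% fell and 16.4% rose, and among the 6289 dimmer genes 5.28% fell and 41.0% rose. Of the 43 enzymes, 40 were in the brighter part, where 23 fell and 1 rose, and 19 were in the brightest decile of all genes. In that decile 13 of the 19 fell, with a median of -0.37, while 35.0% of all its genes fell, with a median of -0.10. Set against the median of all genes in its own decile of brightness, 30 of 43 enzymes were lower, and the median of these differences was -0.15. Cyclic loess, which removes a shift that depends on brightness, left 16 falls and 4 rises among the 43 (16.1% and 20.5% of all genes), with a median of -0.12. After renewed quantile normalisation there were 16 falls and 5 rises (14.5% and 22.8% of all genes), with a median of -0.10, and after centring each array on its median 27 falls and 1 rise (35.8% and 15.7% of all genes).

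**Figure D2:**
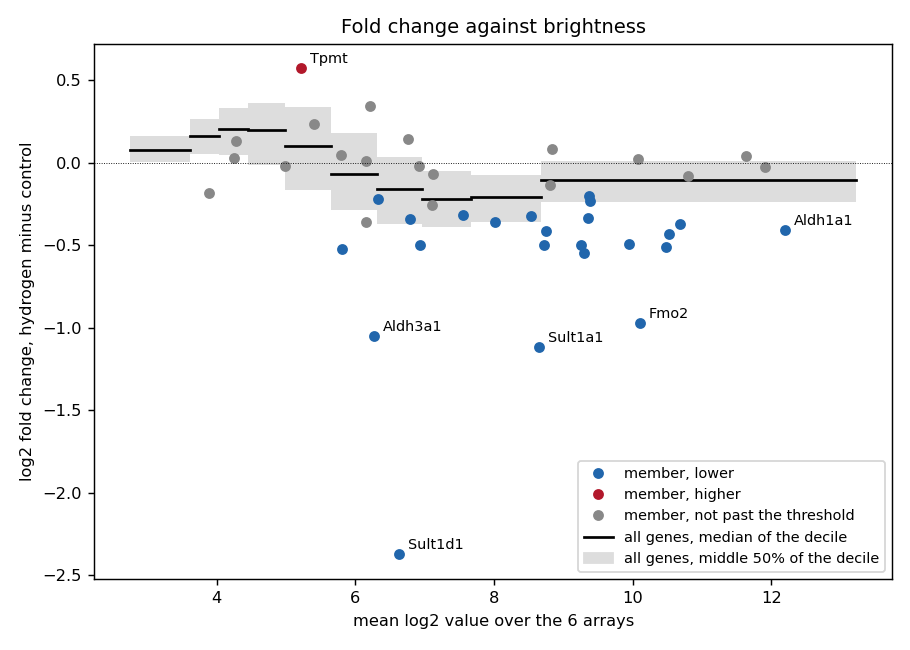
Log2 fold change against the mean log2 value over the 6 arrays. Black lines are the medians of all genes in deciles of brightness, grey boxes their quartiles, and points the 43 enzymes coloured by call. Most enzymes lie on the bright side, and Sult1d1, Sult1a1, Aldh3a1 and Fmo2 lie far below the boxes.

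The hydrogen mice did not differ from each other as much as from the controls over the list. Measured against the control mean of each gene, the median of the 43 enzymes was -0.29, -0.32 and -0.20 in hydrogen replicates 1, 2 and 3, and 0.05, 0.01 and -0.04 in the control replicates. Among the 23 genes that fell, hydrogen replicate 2 had the lowest of the hydrogen values in 13 and replicate 3 the highest in 15. The groups did not overlap for 23 enzymes with the hydrogen group lower and for 2 with it higher, where 29.9% and 31.2% of all genes did not overlap. Among brighter genes the background was 43.1% and 18.9%, and among dim genes, with 3 of the enzymes, 7.22% and 52.3%. By probe set 32 of 64 lay apart as lower and 10 as higher, where 26.4% and 30.9% of all probe sets did. Leaving out any 1 array left 19 to 25 falls and 1 or 2 rises. In those fits 20.4% to 24.0% of all genes fell and 19.1% to 23.5% rose.

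**Figure D3:**
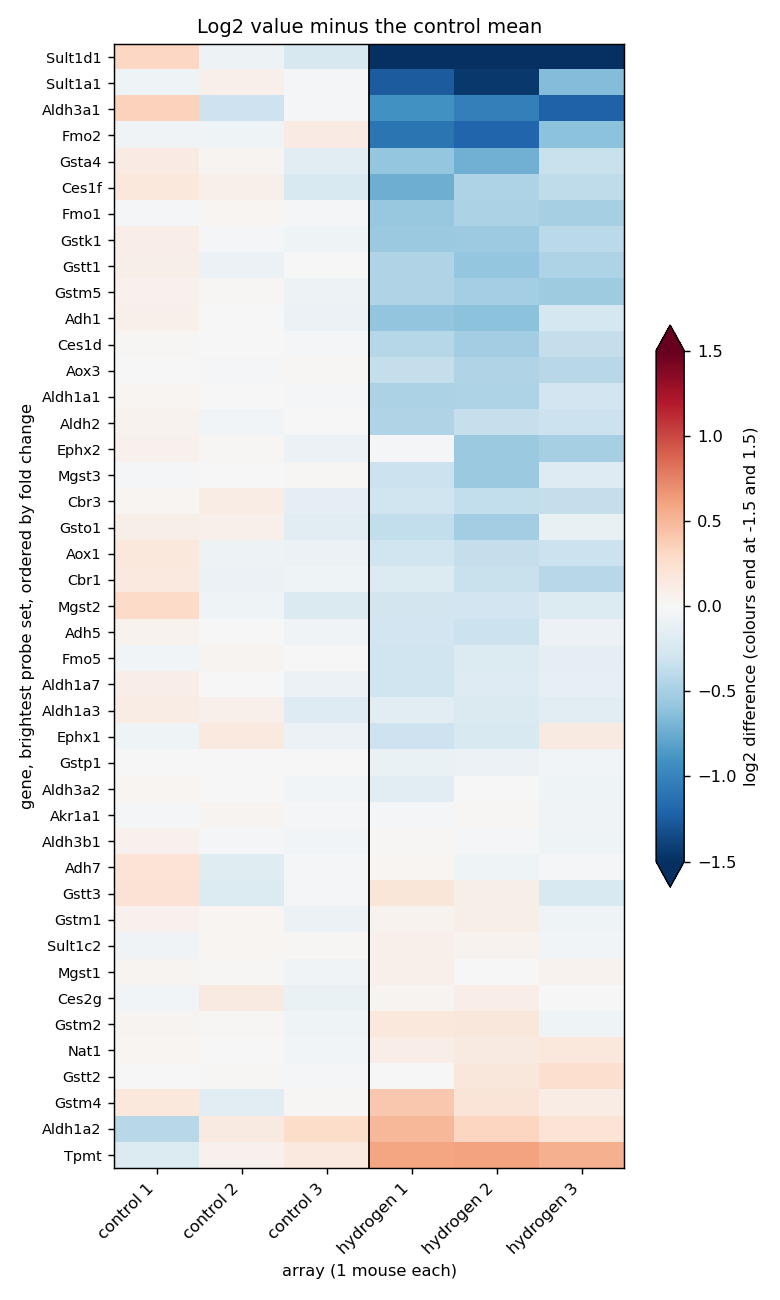
Log2 value of each enzyme gene on each array minus the control mean, for the brightest probe sets ordered by fold change. Blue is below and red above the control mean, and the colours end at -1.5 and 1.5. The upper rows are blue on all 3 hydrogen arrays, with replicate 3 often the palest, and Tpmt in the last row is red on all 3.

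The enzymes with the largest changes are shown first by the DNA before their start sites, since these genes moved most in each direction and their promoters can be set side by side. RefSeq promoters (GRCm38.p6) were matched by symbol for 33 of the 43 genes. The 250 bases before the start are given 5′ to 3′ on the gene's strand for the 3 matched genes that fell most and for the 1 that rose. Capitals mark matches, on either strand, to GCGTG, the core of the xenobiotic response element bound by the aryl hydrocarbon receptor, to TGACNNNGC, the core of the antioxidant response element bound by NRF2, or to TATAAA, the core of the TATA box. No marked matches overlap.
Sult1d1, chr5:87569007-87569256, minus strand: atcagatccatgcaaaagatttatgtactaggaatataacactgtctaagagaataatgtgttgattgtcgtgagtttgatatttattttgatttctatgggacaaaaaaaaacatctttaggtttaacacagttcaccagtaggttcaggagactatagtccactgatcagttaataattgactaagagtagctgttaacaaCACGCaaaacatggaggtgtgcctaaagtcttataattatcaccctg
Sult1a1, chr7:126676419-126676668, minus strand: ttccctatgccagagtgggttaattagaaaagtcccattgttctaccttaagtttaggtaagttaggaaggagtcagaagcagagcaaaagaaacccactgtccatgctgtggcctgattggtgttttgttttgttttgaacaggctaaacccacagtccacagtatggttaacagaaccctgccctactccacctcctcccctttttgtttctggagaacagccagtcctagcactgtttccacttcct
Fmo2, chr1:162898759-162899008, minus strand, the more upstream of 2 starts: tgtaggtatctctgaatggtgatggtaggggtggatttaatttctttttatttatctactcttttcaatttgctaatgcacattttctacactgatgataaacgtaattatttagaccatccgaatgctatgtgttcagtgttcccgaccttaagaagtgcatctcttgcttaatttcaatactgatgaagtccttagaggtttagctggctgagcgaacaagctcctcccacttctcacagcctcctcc
Tpmt, chr13:47043218-47043467, minus strand: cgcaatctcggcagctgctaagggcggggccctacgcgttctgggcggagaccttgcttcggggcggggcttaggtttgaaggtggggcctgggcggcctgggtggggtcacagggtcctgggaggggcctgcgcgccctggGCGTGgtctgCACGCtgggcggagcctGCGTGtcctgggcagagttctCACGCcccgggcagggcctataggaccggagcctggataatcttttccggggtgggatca

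These stretches differ in base composition. The genes that fell had 34.0% (Sult1d1), 45.6% (Sult1a1) and 39.6% (Fmo2) G and C bases and Tpmt had 69.2%, where the median of all promoters was 52.4% and the quartiles were 45.2% and 61.2%. Tpmt held 4 matches to GCGTG and Sult1d1 held 1, and no letters of the antioxidant or TATA cores were found in the 4 windows. Over all matched enzymes, GCGTG was present for 11 of 33 genes, among them 6 of the 17 that fell, against 30.9% of all genes in the promoter table. TGACNNNGC was present for 3 of 33 (Gstm5, Mgst1 and Aldh1a2) against 11.5%, and TATAAA for 7 of 33 against 14.3%. A match is a description of letters and not a bound site.

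Sulfotransferases had the largest falls of any class, with 2 of 3 genes lower. The background was 25.9% of all genes, and 37.9% of those brighter than the median probe set. Sult1d1, which sulfates catecholamines and related amines, had values of 8.13, 7.74 and 7.58 in the controls and 6.03, 4.23 and 6.07 in the hydrogen mice. All hydrogen values lay below all control values, and replicate 2 was by far the lowest, below the median probe set of 4.80. The log2 fold change was -2.37 (SE 0.43, limma adjusted p = 0.00318), a level 5.18-fold lower, and -1.77 without hydrogen replicate 2. A second probe set of Sult1d1 fell from 6.68 ± 0.20 to 4.89 ± 0.39 (SD, n = 3; limma adjusted p = 0.000374). Sult1a1, the phenol sulfotransferase, had 9.14, 9.28 and 9.18 in the controls and 7.95, 7.75 and 8.55 in the hydrogen mice, again without overlap. Its log2 fold change was -1.12 (SE 0.17, limma adjusted p = 0.00165), a level 2.17-fold lower. Sult1c2 was dim, at 4.24 ± 0.04 in control lungs and 4.27 ± 0.06 in hydrogen lungs (SD, n = 3), and did not pass (limma adjusted p = 0.693).

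All 5 measured genes of the oxidase class fell, where 37.9% of all genes brighter than the median probe set fell. Fmo1, Fmo2 and Fmo5 are flavin monooxygenases that oxidise nitrogen and sulfur atoms of drugs. Aox1 and Aox3 are molybdenum enzymes that oxidise aldehydes and nitrogen-containing rings. The class median was -0.41, and it stayed below 0 under all 16 other settings (-0.51 to -0.23). So did the medians of sulfotransferases (-1.745 to -0.93), carboxylesterases (-0.52 to -0.19) and epoxide hydrolases (-0.335 to -0.09). Those of aldehyde dehydrogenases, of alcohol dehydrogenases and carbonyl reductases, and of mitochondrial and microsomal transferases stayed below 0 too. Fmo2, a main flavin monooxygenase of lung in many mammals, had 10.54, 10.52 and 10.71 in the controls and 9.49, 9.40 and 9.97 in the hydrogen mice. The groups were far apart, with hydrogen replicate 3 nearest to the controls. Its log2 fold change was -0.97 (SE 0.14, limma adjusted p = 0.00113), and its 3 further probe sets fell too (-1.52, -1.30 and -0.50). Without the probe sets whose names mark them as shared between transcripts, Fmo2 was -1.52.

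The other oxidases moved less but varied little between mice. Fmo1 had 10.72, 10.76 and 10.72 in the controls and 10.17, 10.26 and 10.24 in the hydrogen mice (log2 fold change -0.51, SE 0.05, limma adjusted p = 0.000409). Within each group these values spanned less than the gap between the groups. Aox3 had 8.97, 8.93 and 8.98 in the controls and 8.60, 8.51 and 8.54 in the hydrogen mice (log2 fold change -0.41, SE 0.05, limma adjusted p = 0.000825), and was -0.24 after cyclic loess. Aox1 (-0.32, adjusted p = 0.00828) and Fmo5 (-0.22, adjusted p = 0.0182) lost their calls after cyclic loess (limma adjusted p = 0.147 and 0.307) and after renewed quantile normalisation (0.198 and 0.448). The Fmo5 call also ended without control replicate 2 (limma adjusted p = 0.0587) or hydrogen replicate 1 (0.0641). Fmo5 had a further probe set that fell by 0.52 on the log2 scale and a dim one at 0.05 that did not pass.

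Aldehyde dehydrogenases split, with 4 of 8 genes lower and 4 not past the threshold. Of the 8, 1 was dim, and 37.9% of all brighter genes fell. Aldh3a1, which oxidises aromatic and medium-chain aldehydes and is known as a protein of the cornea, had 7.13, 6.48 and 6.76 in the controls and 5.88, 5.76 and 5.58 in the hydrogen mice. The groups did not overlap, and the log2 fold change was -1.05 (SE 0.15, limma adjusted p = 0.00119). Aldh1a1, which makes retinoic acid from retinaldehyde, was among the brightest enzymes, with 12.42, 12.40 and 12.36 in the controls and 11.92, 11.93 and 12.11 in the hydrogen mice. The log2 fold change was -0.41 (SE 0.07, limma adjusted p = 0.00192). Aldh2, the mitochondrial enzyme that clears acetaldehyde, had 10.92, 10.83 and 10.86 in the controls and 10.42, 10.53 and 10.55 in the hydrogen mice (log2 fold change -0.37, SE 0.06, limma adjusted p = 0.00182). These 3 genes kept their calls under every other setting.

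The remaining aldehyde dehydrogenases changed little or not clearly. Aldh1a7, a close relative of Aldh1a1, fell by 0.20 on the log2 scale (limma adjusted p = 0.0456). That call ended without control replicate 1 (limma adjusted p = 0.137) or 2 (0.0925), without hydrogen replicate 1 (0.145) or 2 (0.0951), with a replicate block (0.0884), after cyclic loess (0.555), after renewed quantile normalisation (0.646) and without dim probe sets (0.0511). The fatty aldehyde dehydrogenase gene Aldh3a2 (-0.07, limma adjusted p = 0.375) and Aldh3b1 (-0.02, adjusted p = 0.795) did not pass, and Aldh3b1 was 0.17 after cyclic loess (adjusted p = 0.0478) and 0.20 after renewed quantile normalisation (0.0257). Aldh1a2, a retinaldehyde dehydrogenase known from mesothelium, had 0.34 (limma adjusted p = 0.115) with 5.62, 6.17 and 6.31 in the controls and 6.53, 6.36 and 6.24 in the hydrogen mice, so that the groups overlapped. It was 0.14 without control replicate 1 (limma adjusted p = 0.290), and it passed without control replicate 3 (0.48, adjusted p = 0.0423) and after renewed quantile normalisation (0.48, adjusted p = 0.0496). The mesothelial marker Upk3b likewise had its lowest value in control replicate 1 (6.51, against 7.54 and 7.62 in the others). The part of these cells in the Aldh1a2 values was not tested.

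Among cytosolic glutathione transferases, 4 of 10 measured genes fell and none rose. All 10 were brighter than the median probe set, and 37.9% of all such genes fell, so this count was near the background. Gsta4, which clears the lipid peroxidation product 4-hydroxynonenal, had 9.69, 9.61 and 9.41 in the controls and 8.99, 8.85 and 9.24 in the hydrogen mice (log2 fold change -0.54, SE 0.11, limma adjusted p = 0.00469). Gstt1, a theta class enzyme, had 9.59, 9.41 and 9.51 in the controls and 9.05, 8.92 and 9.04 in the hydrogen mice (log2 fold change -0.50, SE 0.07, limma adjusted p = 0.000926). Gstm5, of the mu class, had 7.24, 7.19 and 7.10 in the controls and 6.73, 6.67 and 6.64 in the hydrogen mice (log2 fold change -0.50, SE 0.06, limma adjusted p = 0.000618). All 3 were lower without overlap, and Gstm5 was -0.31 after cyclic loess and -0.28 after renewed quantile normalisation. The omega class gene Gsto1 fell by 0.33 on the log2 scale (limma adjusted p = 0.0397), with overlapping groups, while its second probe set fell by 0.48 without overlap (adjusted p = 0.00165).

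The Gsto1 call by the brighter probe set was fragile. It ended without control replicate 1 (limma adjusted p = 0.118) or 2 (0.117), without hydrogen replicate 1 (0.0986) or 2 (0.129), with a replicate block (0.0725), after cyclic loess (0.219) and after renewed quantile normalisation (0.239). The 6 other cytosolic transferases did not pass: Gstp1, the abundant pi class enzyme (-0.08), Gstt3 (0.01), Gstm1 (0.02), Gstm2 (0.09), Gstt2 (0.14) and Gstm4 (0.24). The class median was -0.03, and its sign turned with the scaling, to 0.06 after cyclic loess and 0.04 after renewed quantile normalisation. Under both of these Gstm2 (0.25 and 0.26) and Gstt2 (0.32 and 0.345) were past the threshold as higher, with limma adjusted p = 0.0335 and 0.0307 for Gstm2 and 0.00863 and 0.00652 for Gstt2. Gstt2 also passed without hydrogen replicate 1 (0.21, adjusted p = 0.0351), and Gstm4 without control replicate 1 (0.32, adjusted p = 0.0473) and with a replicate block (adjusted p = 0.0387).

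Transferases located in mitochondria, peroxisomes or microsomes gave 2 falls in 4 genes, where 37.9% of all brighter genes fell. Gstk1, the kappa class enzyme of mitochondria and peroxisomes, had 9.07, 8.94 and 8.90 in the controls and 8.41, 8.43 and 8.57 in the hydrogen mice (log2 fold change -0.50, SE 0.07, limma adjusted p = 0.00106), and was -0.32 after renewed quantile normalisation. Mgst3, a microsomal enzyme, had 8.18, 8.19 and 8.22 in the controls and 7.88, 7.64 and 8.0 in the hydrogen mice (log2 fold change -0.36, SE 0.09, limma adjusted p = 0.0115). Its call ended after cyclic loess (-0.16, adjusted p = 0.174) and renewed quantile normalisation (-0.13, adjusted p = 0.256). Mgst2 (-0.26, limma adjusted p = 0.101) and the very bright Mgst1 (0.04, adjusted p = 0.544) did not pass. Mgst2 was -0.11 without control replicate 1 (limma adjusted p = 0.245) and -0.37 without control replicate 3 (0.0267). It was -0.06 after cyclic loess and -0.03 after renewed quantile normalisation.

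Carboxylesterases fell in 2 of 3 cases, where 37.9% of all brighter genes fell. Ces1d, which hydrolyses triglycerides and ester drugs, had 10.76, 10.73 and 10.72 in the controls and 10.31, 10.22 and 10.38 in the hydrogen mice (log2 fold change -0.43, SE 0.06, limma adjusted p = 0.000979). Ces1f had 6.22, 6.14 and 5.84 in the controls and 5.34, 5.60 and 5.69 in the hydrogen mice (log2 fold change -0.52, SE 0.12, limma adjusted p = 0.00783), by a probe set that its name marks as shared. Both were lower without overlap, and Ces2g (0.05, limma adjusted p = 0.623) did not pass. Neither epoxide hydrolase gene passed: the microsomal Ephx1 had -0.13 (limma adjusted p = 0.384) and the soluble Ephx2 -0.36 (adjusted p = 0.0532). Ephx2 passed under 6 of 15 other settings, among them without hydrogen replicate 1 (-0.53, limma adjusted p = 0.00238), and was -0.23 after renewed quantile normalisation (0.237). Ephx1 passed without hydrogen replicate 3 (-0.27, limma adjusted p = 0.0400), but was -0.04 (-0.045) without hydrogen replicate 1, -0.06 without control replicate 2 and 0.04 after cyclic loess.

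Alcohol dehydrogenases and carbonyl reductases fell in 4 of 6 cases, where 37.9% of all brighter genes fell. Adh1, which oxidises ethanol and retinol, had 10.27, 10.20 and 10.11 in the controls and 9.60, 9.58 and 9.93 in the hydrogen mice (log2 fold change -0.49, SE 0.10, limma adjusted p = 0.00457). The carbonyl reductase gene Cbr3 had 6.98, 7.06 and 6.82 in the controls and 6.66, 6.58 and 6.60 in the hydrogen mice (log2 fold change -0.34, SE 0.07, limma adjusted p = 0.00562). Its relative Cbr1 had 7.86, 7.62 and 7.65 in the controls and 7.51, 7.38 and 7.29 in the hydrogen mice (log2 fold change -0.32, SE 0.08, limma adjusted p = 0.0153). The groups were apart for all 3, but after cyclic loess Cbr3 (-0.16, adjusted p = 0.106) and Cbr1 (-0.12, adjusted p = 0.304) did not pass, nor did they after renewed quantile normalisation (0.156 and 0.414). Adh5, the formaldehyde-clearing class III enzyme, fell by 0.23 on the log2 scale (limma adjusted p = 0.0288), a call that ended without control replicate 1 or 2 (0.0847 and 0.0703), without hydrogen replicate 1 or 2 (0.0899 and 0.102), with a replicate block (0.0514), after cyclic loess (0.358) and after renewed quantile normalisation (0.417). Akr1a1, the aldehyde reductase, was bright and flat, at 11.92 ± 0.04 in control lungs and 11.90 ± 0.04 in hydrogen lungs (SD, n = 3; limma adjusted p = 0.745).

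Tpmt, which methylates thiopurine drugs, went the other way. It had 4.72, 4.99 and 5.08 in the controls and 5.52, 5.53 and 5.46 in the hydrogen mice, without overlap, and its log2 fold change was 0.57 (SE 0.09, limma adjusted p = 0.0017). All 4 of its probe sets had higher hydrogen values without overlap, and 3 of them passed, by 0.57, 0.34 and 0.32. The 3 besides the brightest were dim, and among all dim genes 52.3% lay apart as higher and 41.0% rose. After cyclic loess the brightest passed (0.52, limma adjusted p = 0.00345) and the other 3 did not. Its level lay near the median probe set, where genes in general were higher in the hydrogen group: the decile of brightness holding it had a median of 0.10. Nat1, the arylamine acetyltransferase of the same class, was dim and did not pass (0.13, limma adjusted p = 0.0658).

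Several enzymes had probe sets that did not move together. Of the 11 genes with more than 1 probe set, Sult1d1, Fmo2 and Gsto1 fell by every probe set, and none had probe sets past the threshold in both directions. Gstm1 had 4 probe sets. The brightest had 10.06 ± 0.08 in control lungs and 10.08 ± 0.08 in hydrogen lungs (SD, n = 3), and 2 more did not pass, while a dimmer one rose from 6.96, 6.91 and 6.85 to 7.57, 7.57 and 7.47 (log2 fold change 0.63, SE 0.06, limma adjusted p = 0.000304). With the mean of its probe sets Gstm1 was 0.20 (limma adjusted p = 0.0411). Mu class genes are near-identical copies in places, so how much signal each probe set takes from its relatives is uncertain.

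Adh7 and Aldh1a3, at or near the dim range, showed the same kind of split. The brighter probe set of Adh7, a retinol-oxidising enzyme of upper digestive and airway epithelium, had -0.02 (limma adjusted p = 0.876), and the dimmer one fell from 4.63, 4.79 and 4.26 to 3.48, 3.49 and 3.66 (log2 fold change -1.02, SE 0.13, adjusted p = 0.000677). With the mean of both, Adh7 was -0.52 (limma adjusted p = 0.00135). Aldh1a3, a further retinaldehyde dehydrogenase, had -0.18 by its brightest probe set (limma adjusted p = 0.109), while the other 2 rose by 0.31 and 0.43, the second from 3.47, 3.38 and 3.37 to 3.83, 3.86 and 3.81, and the mean of all 3 was 0.19 (adjusted p = 0.0256). The brightest passed as lower without control replicate 3 (-0.28, limma adjusted p = 0.00915) and after cyclic loess (-0.30, adjusted p = 0.0306). All 3 lay at 3.41 to 3.98 in the controls, below the median probe set.

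**Figure D4:**
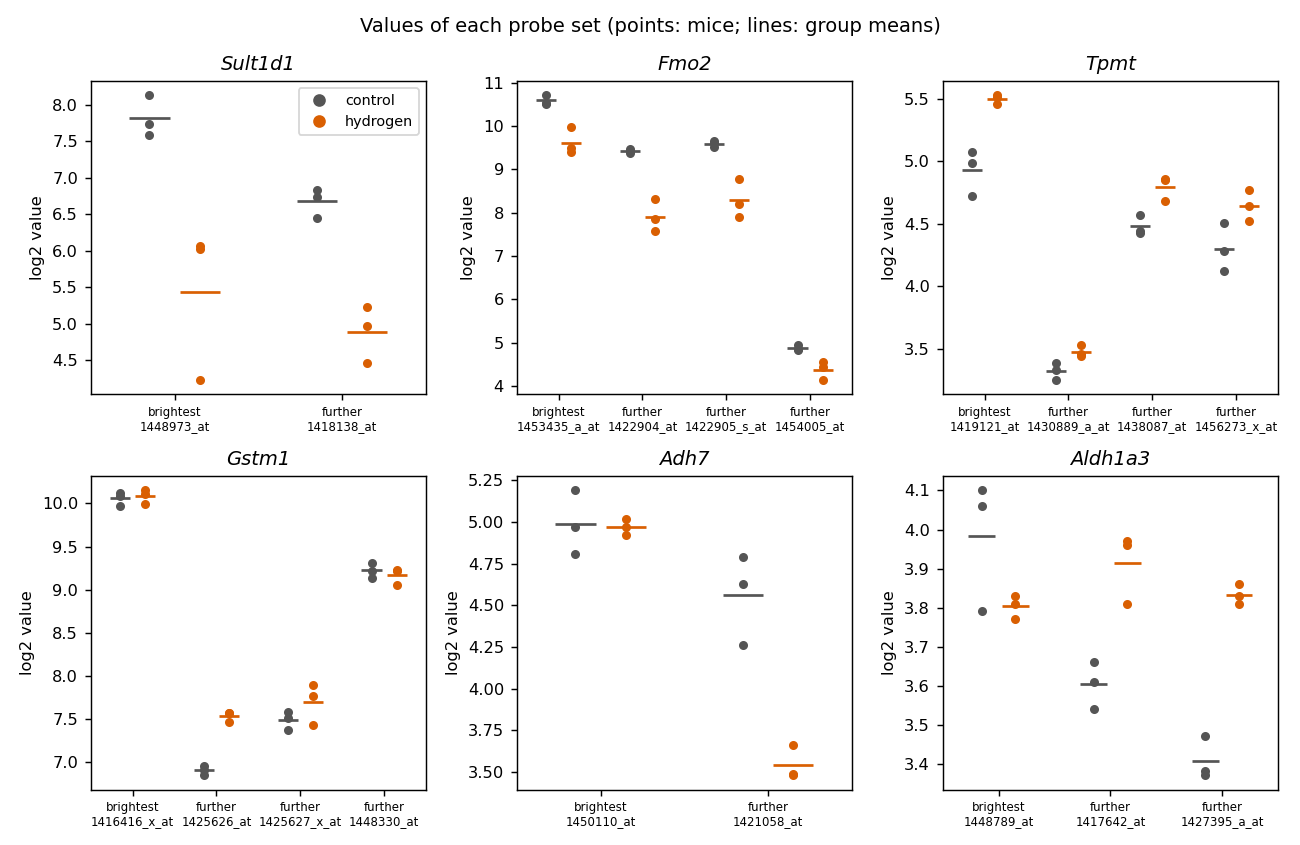
Log2 values of each probe set of 6 genes on the control (grey) and hydrogen (orange) arrays, with lines at the group means, brightest probe set first. All probe sets of Sult1d1 and Fmo2 are lower in the hydrogen mice and all of Tpmt higher, whereas in Gstm1, Adh7 and Aldh1a3 the probe sets of 1 gene differ. Vertical scales differ between panels.

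Many of these genes lie beside each other as copies of an ancestral gene, and neighbours did not always move alike. In RefSeq order (GRCm38.p6) the directly adjacent pairs Aox1 and Aox3, Fmo1 and Fmo2, Cbr1 and Cbr3, and Aldh1a1 and Aldh1a7 each fell as a pair, as did Ces1d and Ces1f with 1 coding gene between them. In the theta cluster Gstt1 fell while its neighbours Gstt3 and Gstt2 did not pass. Aldh3a1 fell and the adjacent Aldh3a2 did not pass, and Adh1 fell and the adjacent Adh7 did not pass. Adh1 and Adh5, with 3 coding genes between them, both fell. The adjacent Gstm2, Gstm1 and Gstm4 did not pass, and Gstm5, with 3 coding genes between it and Gstm2, fell. For comparison, 23 of all 43 enzymes fell. For 9 pairs of probe sets chosen after their values were seen, the within-array difference was compared between the groups. The fold change of Gstt1 was 0.64 below that of Gstt2 (difference between the genes 2.81 ± 0.10 in controls and 2.17 ± 0.16 in hydrogen mice, SD, n = 3; exact permutation p = 0.1). That of Aldh3a1 was 0.98 below that of Aldh3a2 (exact permutation p = 0.1). The Gstm1 probe set that rose differed by 0.68 from its neighbour on the same gene, the 2 probe sets of Adh7 by 1.00, and those of Aldh1a3 by 0.61. All 9 comparisons gave an exact permutation p = 0.1, two-sided, the smallest possible here, and 0.1 after Benjamini-Hochberg adjustment.

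Other genes of the same families gave counts near those of all genes. Of 80 listed, 60 were measured, of which 11 fell and 19 rose, with a median of 0.03, where 25.9% of all genes fell and 25.5% rose. Of the 60, 28 were dim, and 41.0% of all dim genes rose. After cyclic loess 11 of the 60 were lower and 9 higher, where 16.1% and 20.5% of all genes were. The largest falls were Adhfe1, a hydroxyacid-oxoacid transhydrogenase (-1.06), Gsta2, an alpha class transferase (-0.92), and the aldo-keto reductase gene Akr1c14 (-0.67). The rises were led by the mu class genes Gstm7 (0.69) and Gstm3 (0.69) and the dim Aldh3b2 (0.46). Gstm3 had 6.58, 6.66 and 6.70 in the controls and 7.33, 7.33 and 7.34 in the hydrogen mice (limma adjusted p = 0.000234). Gstm7 had 5.24, 5.17 and 5.28 in the controls and 5.93, 5.93 and 5.90 in the hydrogen mice. Both rose without overlap, whereas the mu class member Gstm5 fell. The name of the Gstm3 probe set marks it as shared, so how much of its signal comes from relatives is uncertain.

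Markers of cell types in the lung were read beside the enzymes, and their counts stand against 37.9% of brighter genes that fell and 16.4% that rose, and 5.28% and 41.0% of dim genes. Of 14 genes listed as club cell markers 9 fell and none rose. Their summed linear signal was 35322 to 38134 in controls and 26865 to 31089 in the hydrogen mice. That sum includes the bright Bpifa1 (mean 11.95 in controls and 7.51 in hydrogen mice) and Scgb3a1 (11.58 and 9.03). It also includes Scgb1a1, which did not change. The largest falls were those of the secreted proteins Bpifa1 (-4.44), Reg3g (-2.64), Scgb3a1 (-2.55), Bpifb1 (-2.27) and Muc5b (-1.21) and of Lypd2 (-1.07), all lowest in hydrogen replicate 2, as Sult1d1 was. Nupr1 (-0.88), Cckar (-0.33) and Scgb3a2 (-0.26) fell too. Scgb1a1 (0.01), Cyp2f2 (-0.13), Cbr2 (0.04), Cldn10 (-0.26) and Hp (0.19) did not pass. Members of the list thus differed, and whether club cells were fewer was not tested. Scgb1a1 had the highest mean of all genes, at 13.21 to 13.25 on every array, and Cbr2 and Cyp2f2 lay above 12. The enzyme gene Aldh1a1 and the marker Scgb3a2, with control means of 12.39 and 12.30, fell (-0.41 and -0.26). Whether a probe set as bright as that of Scgb1a1 could still show a fall was not tested. Of 10 fibroblast markers 5 fell and 1 rose (summed signal 7641 to 8036 and 6698 to 7247), and of 9 ciliated cell markers 6 fell (1511 to 1864 and 1252 to 1345). All 11 cardiac muscle markers fell. Their summed signal was 7449 to 9181 in controls and 3794, 918 and 2821 in hydrogen replicates 1, 2 and 3. The summed adipocyte signal was 2779 to 3141 in controls and 3055, 260 and 752 in hydrogen replicates 1, 2 and 3. Among the 7 adipocyte markers 2 fell and 2 rose. Both sums were lowest in hydrogen replicate 2, so that low was not particular to club cell markers. The part of these cells in the fall of the enzymes was not tested.

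The remaining lists differed in direction. Of 8 alveolar type 2 cell markers 3 rose and none fell (summed signal 22222 to 23175 and 23304 to 23469), of 8 endothelial markers 2 fell (6816 to 7546 and 6407 to 7427), and of 8 alveolar macrophage markers 4 fell (3719 to 4429 and 3309 to 3473, lower on all hydrogen arrays). Mesothelial markers had 1 rise and 1 fall among 8 (838 to 1107 and 949 to 961). Hepatocyte markers, from the organ best known for these enzymes, rose in 6 of 8 cases at low signal (160 to 171 and 238 to 271). Tracheal or squamous markers rose in 6 of 9 cases, 7 of the 9 being dim (176 to 178 and 222 to 230). Among the hepatocyte markers the albumin gene Alb rose most, from 4.37 to 5.51 (log2 fold change 1.15, limma adjusted p = 0.000674).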

How the data were processed

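Whole lungs of 6 mice, 3 per group, were measured on MG-430 PM arrays. The authors deposited log2 values per probe set, made with RMA and Affymetrix Expression Console per the submitters' processing notes, which give no version. Array medians were 4.75 to 4.76 in the control group and 4.84 to 4.85 in the hydrogen group. The SD over all probe sets was 1.904 to 1.918 on control arrays and 1.80 to 1.811 on hydrogen arrays. The deposited scaling thus differed by group, and the cause was not tested. The 104 control probe sets were left out of the main test. The deposited log2 values of 45037 probe sets were tested between the groups in limma 3.58.1 under R 4.3.3 (lmFit, eBayes without trend), with Benjamini-Hochberg adjustment over all of them and no filter. The annotation names 1 gene for 28898 of these probe sets, and all 64 probe sets of the enzymes matched RefSeq symbols through Entrez identifiers. "Dim" means a mean at or below the median probe set, 4.80. Every enzyme is named, and values on each array are given for up to 3 genes per class, those past the threshold without overlap and with the largest change; Gstm1, Adh7, Aldh1a2 and Aldh1a3 were added after their values were seen. Of each list of other genes the 3 largest changes past the threshold in each direction are named, and the other regulators past the threshold were added after their values were seen. Members, lists and rules were chosen with earlier results of these data known. The labels' replicate numbers did not pair the mice. On simulated arrays of 45037 probe sets limma recovered 65% of 100 changes of 0.5 and 95% of 100 changes of 1, with 11 of 44837 unchanged probe sets called. The simulated noise was independent between probe sets and held no shift by brightness or batch. The simulation therefore does not give the rate of false calls in these data. Figures used matplotlib 3.10.9 in Python 3.11.15.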

Additional observations from a re-analysis of the deposited data

How the results depend on the processing

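Of the 23 enzymes that fell, 15 stayed past the threshold under every other setting that measured them, out of 16: Sult1d1, Sult1a1, Fmo1, Fmo2, Aox3, Aldh1a1, Aldh2, Aldh3a1, Gsta4, Gstt1, Gstm5, Gstk1, Ces1d, Ces1f and Adh1. Tpmt stayed higher in all 16. The same count over all genes was not made, so whether 15 of 23 is more than usual is not known. The number of genes that rose, 1 here, was 2 with a replicate block (23.5% of all genes) and 5 after renewed quantile normalisation (22.8%). It was 4 after cyclic loess (20.5% of all genes) and 4 when a gene's probe sets were averaged (28.1%). When each array was left out it was 1 to 2 (19.1% to 23.5% of all genes). Probe sets that rose numbered 10 after renewed quantile normalisation and 2 without dim probe sets, against 6 here (24.3% of all probe sets). Counted by gene, 22.8% of all genes rose after renewed quantile normalisation and 16.0% of those left without dim probe sets. The median of the enzymes was -0.35 after median centring, -0.10 (-0.095) after renewed quantile normalisation, -0.12 after cyclic loess, and -0.35 (-0.345) to -0.24 when each array was left out, with -0.345 without control replicate 3. Aldh3b1 turned to 0.20 and 0.17 after renewed quantile normalisation and cyclic loess, and Aldh1a3 to 0.19 when its probe sets were averaged. The cause of these shifts was not tested. Replicate numbers did not pair the mice (same-number correlations 0.08, 0.03 and -0.11). With a replicate block 21 enzymes fell (24.5% of all genes), and Adh5, Aldh1a7 and Gsto1 lost their calls. Weighting the arrays, a trended and robust prior, and adjustment over genes alone gave 23 to 24 falls and 1 rise. Under these settings 26.0% to 26.6% of all genes fell and 26.1% to 26.8% rose. Leaving out shared probe sets gave 20 falls and 1 rise among 37 genes (24.7% and 26.5% of all genes). The signal over background limits Sult1c2, Nat1 and Aldh1a3, which were dim.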

Other observations

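Cytochrome P450 genes and regulators of xenobiotic enzymes were read from lists drawn up with earlier results known. Of 26 measured P450 genes 10 fell and 3 rose, with a median of -0.14 (25.9% and 25.5% of all genes by limma). The largest falls were Cyp2a5, which had 8.66, 8.77 and 8.46 in the controls and 7.24, 5.79 and 7.86 in the hydrogen mice, Cyp2e1 (-1.31) and Cyp39a1 (-1.10). Cyp2a5 shared with Sult1d1 its lowest value in hydrogen replicate 2. The rises, Cyp2b19 (0.33), Cyp4f18 (0.32) and Cyp2u1 (0.16), had levels near or below the median probe set, and after cyclic loess Cyp2b19 (limma adjusted p = 0.0861) and Cyp2u1 (0.588) did not pass.

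Of 17 measured regulators 6 fell and 5 rose, where 25.9% and 25.5% of all genes did. Ahr, the aryl hydrocarbon receptor, had 9.38, 9.22 and 9.04 in the controls and 9.56, 9.70 and 9.35 in the hydrogen mice (log2 fold change 0.32, SE 0.11, limma adjusted p = 0.0386), with overlapping groups, while its partner Arnt fell by 0.28 on the log2 scale (adjusted p = 0.0216). Nfe2l2, which encodes NRF2, fell by 0.24 on the log2 scale (limma adjusted p = 0.0233), as did the small Maf genes Maff (-0.37) and Mafg (-0.28), which encode its partners. None of these 4 passed after cyclic loess (limma adjusted p = 0.468 for Arnt, 0.325 for Nfe2l2, 0.172 for Maff and 0.532 for Mafg). The nuclear receptor genes Esr1 (0.48), Hnf4a (0.48), Nr1i3 (0.32) and Nr1i2 (0.29) rose with levels near or below the median probe set, and Ppara (-0.29) and Pparg (-0.21) fell. After cyclic loess Nr1i3 (limma adjusted p = 0.0641) and Nr1i2 (0.154) did not pass. The median of the list was -0.09, and 0.08 after cyclic loess, so its sign depended on the scaling.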
